A study of Mus musculus with 15 samples.

Results

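The UDP-glucuronosyltransferase (Ugt) genes described here are Ugt1a1, Ugt2a3, Ugt2b1, Ugt2b5, Ugt2b34, Ugt2b35, Ugt2b36, Ugt2b38, Ugt3a1 and Ugt3a2. They were chosen by name from the families annotated in the mouse genome, with earlier results of these data known. Of these, 10 of 10 were found among the 22 Ugt genes and the 25731 genes of the liver RNA sequencing tables. All 10 passed the filter on low counts. Total RNA was sequenced from livers of C57BL/6 mice, an inbred strain that all 3 groups share, with 5 libraries per diet. The first group received a ketogenic diet (KD), which holds very little carbohydrate, for 3 days at 12 weeks of age. The second received a high-fat diet (HFD) for 3 days at 12 weeks of age. The third received chow (CD), and for it the age was not given in the sources used here, nor were the sex of any mice, the diet recipes or a batch. Nothing in the labels ties a library to a numbered animal, so p-values measure the spread between libraries, which were taken as separate mice. The series asks how a ketogenic diet affects the fatty liver, and these comparisons ask what a short exposure does to the genes of glucuronidation.

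Glucuronidation joins glucuronic acid, donated by UDP-glucuronate, to bilirubin, steroids, bile acids, drugs and plant compounds in the endoplasmic reticulum of hepatocytes, and the products leave the cell in bile or blood. The Ugt1a genes lie in 1 cluster in which each gene has its own start and its own substrate-binding exon and all are spliced to the same last exons, while the Ugt2 genes are separate copies of whole genes. Ugt3a proteins are known in humans to use sugar donors other than UDP-glucuronate.

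Across the 15 libraries the estimated reads came to between 34707597 and 50914494 in KD livers, between 30121672 and 44764257 in HFD livers and between 30190806 and 43688344 in CD livers. All Ugt genes together held 0.475 ± 0.0268% of the reads in KD livers, 0.451 ± 0.0202% in HFD livers and 0.515 ± 0.0319% in CD livers (SD, n = 5 each), and the 10 genes held 89.6%, 91.3% and 89.7% of those reads in the same order. Hepatocyte markers were abundant in every library, with summed levels over 7 of 7 markers of 91130 to 101600 CPM, a count scaled to a common library size, in KD livers, 75770 to 89700 in HFD livers and 78190 to 95510 in CD livers. Markers of kidney tubule and intestinal epithelium, which also make Ugt enzymes, were too low to be tested. Their summed levels were at most 1.01 and 0.158 TPM, a level scaled also to transcript length, in any library, and 1 of the 4 markers in each list was at 0 throughout.

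In the GENCODE M21 annotation of build GRCm38, Ugt1a1 (ENSMUSG00000089960.1) lies on chromosome 1 from 88211959 to 88218997 on the plus strand, at the end of a cluster of 9 Ugt1a genes. The start of Ugt1a9 (ENSMUSG00000090175.1) lies 141 kb before that of Ugt1a1, from 88070800, and both end at 88218997. The 10 Ugt2 genes span 601 kb of chromosome 5, from 86889767 to 87490871, and 7 of the 10 genes described here are among them. Ugt2b5 (ENSMUSG00000054630.7) lies from 87124960 to 87140318 and Ugt2b38 (ENSMUSG00000061906.5) from 87409942 to 87424203, both on the minus strand. Ugt3a1 and Ugt3a2 are neighbours on chromosome 15, from 9276888 to 9370955. All 22 genes are annotated as protein-coding.

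The promoters of 4 genes are printed because the results turn on these genes: Ugt1a1 and Ugt1a9 share their last exons, with Ugt1a1 at its highest in KD livers and Ugt1a9 at its lowest in HFD livers, and Ugt2b5 and Ugt2b38 are close copies. Each line gives the 250 bases before the RefSeq start on GRCm38.p6, 5′ to 3′ on the strand of the gene. Capitals mark AGGTCA, a half-site bound by many nuclear receptors, on either strand, which is absent from the window of Ugt1a1. The windows are chr1:88211709-88211958 for Ugt1a1, chr1:88070529-88070778 for Ugt1a9, chr5:87140341-87140590 for Ugt2b5 and chr5:87424204-87424453 for Ugt2b38.
Ugt1a1: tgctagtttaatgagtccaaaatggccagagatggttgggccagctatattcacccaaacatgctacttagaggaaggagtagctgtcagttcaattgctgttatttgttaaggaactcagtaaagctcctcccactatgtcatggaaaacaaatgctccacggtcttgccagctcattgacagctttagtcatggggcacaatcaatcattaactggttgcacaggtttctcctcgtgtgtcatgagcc
Ugt1a9: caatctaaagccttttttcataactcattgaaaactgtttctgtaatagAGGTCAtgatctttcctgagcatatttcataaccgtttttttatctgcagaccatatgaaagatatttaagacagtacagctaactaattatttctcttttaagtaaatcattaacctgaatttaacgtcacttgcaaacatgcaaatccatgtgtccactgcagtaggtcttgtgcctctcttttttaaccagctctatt
Ugt2b5: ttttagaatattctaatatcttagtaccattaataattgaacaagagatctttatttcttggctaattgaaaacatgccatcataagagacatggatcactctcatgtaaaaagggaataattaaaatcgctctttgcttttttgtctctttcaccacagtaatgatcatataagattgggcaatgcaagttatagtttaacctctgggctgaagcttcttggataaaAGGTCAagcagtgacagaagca
Ugt2b38: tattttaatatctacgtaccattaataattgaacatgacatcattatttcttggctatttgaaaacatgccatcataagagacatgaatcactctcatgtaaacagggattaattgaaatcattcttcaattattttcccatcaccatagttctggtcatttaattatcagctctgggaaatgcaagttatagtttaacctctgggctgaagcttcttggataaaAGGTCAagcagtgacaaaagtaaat
Of the 22 Ugt genes, 20 had a window in the RefSeq table, and Ugt1a6b and Ugt3a2 had none. AGGTCA was found in 7 of the 20 windows (Ugt1a7c, Ugt1a9, Ugt2b5, Ugt2b35, Ugt2b36, Ugt2b37, Ugt2b38), beside 14.0% of all 32851 windows, and starts 22 bases before the start of Ugt2b5 and 25 bases before that of Ugt2b38. Ugt2b5 and Ugt2b38 share an unbroken identical run of 62 bases that contains it. Ugt2b37 shares such a run of 82 bases with Ugt2b38 and of 68 bases with Ugt2b5. Ugt2b36 shares one of 24 bases with Ugt2b5 and Ugt2b37 and one of 22 bases with Ugt2b38. Matches in these copies are therefore not separate from each other, which limits the comparison with all windows. The core GCGTG of the dioxin receptor AhR was found in the windows of Ugt1a5, Ugt1a8 and Ugt8a (28.2% of all windows), and TGACNNNGC, a core bound by NRF2, in 0 of 20 (10.2% of all windows). TTGCGCAA, the palindrome of C/EBP, was found in 0 of 20 windows and in 0.164% of all windows. Each motif was searched on both strands, and a match is a description of the letters only.

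Copies share sequence, which limits how firmly reads can be given to 1 gene. Of the distinct 31-base words in the annotated transcripts of Ugt1a1, 41.5% occur in no other gene, and the remainder is shared with other Ugt1a genes. That share was 33.2% for Ugt1a9 and 15.8% for Ugt1a6b. For Ugt2b5 it was 44.2% and for Ugt2b38 47.1%, and 44.9% of the words of Ugt2b5 also occur in Ugt2b38. The other genes among the 10 are better separated, with 82.5% for Ugt3a1, 85.5% for Ugt3a2, and between 91.4% (Ugt2b36) and 99.2% (Ugt2b1) for the remaining Ugt2 genes of the 10. Outside the 10, the share was 2.2% for Ugt2a1, 6.35% for Ugt2a2 and 65.6% for Ugt2b37. Values for single Ugt1a genes, Ugt2b5 and Ugt2b38 are therefore less certain than their sums.

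Within a diet, levels were compared between genes in TPM, which accounts for transcript length. In KD livers Ugt2b5 (528 ± 58.4 TPM), Ugt2b36 (524 ± 36.3 TPM) and Ugt1a1 (522 ± 48.6 TPM) headed the 10 genes, and their ranges overlapped. Ugt2b1 (248 ± 21.9 TPM) lay below all 3 without overlap and overlapped Ugt2b34. In HFD livers Ugt2b5 averaged 476 ± 42.9 TPM, Ugt2b36 394 ± 51.9 TPM and Ugt2b1 383 ± 57.0 TPM, each overlapping the next, with Ugt1a1 below all 3 at 241 ± 34.6 TPM (SD, n = 5). In CD livers Ugt2b5 stood alone at 694 ± 58.6 TPM, followed by Ugt2b36 at 466 ± 25.6 TPM without overlap, and Ugt2b1 (303 ± 16.7 TPM) overlapped Ugt1a1 (269 ± 43.2 TPM). Ugt2b34, Ugt3a2 and Ugt2a3 came after these 4 genes in each diet, at 178 to 243 TPM in KD livers, 139 to 170 TPM in HFD livers and 127 to 211 TPM in CD livers. Ugt2b38 was the lowest of the 10 in every diet, at 9.05 ± 1.98 TPM in KD livers, 9.41 ± 1.58 TPM in HFD livers and 16.4 ± 4.37 TPM in CD livers. Ugt1a1 shared the top rank on the ketogenic diet and took rank 4 on the other diets, as a description of levels within each diet.

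**Figure D1:**
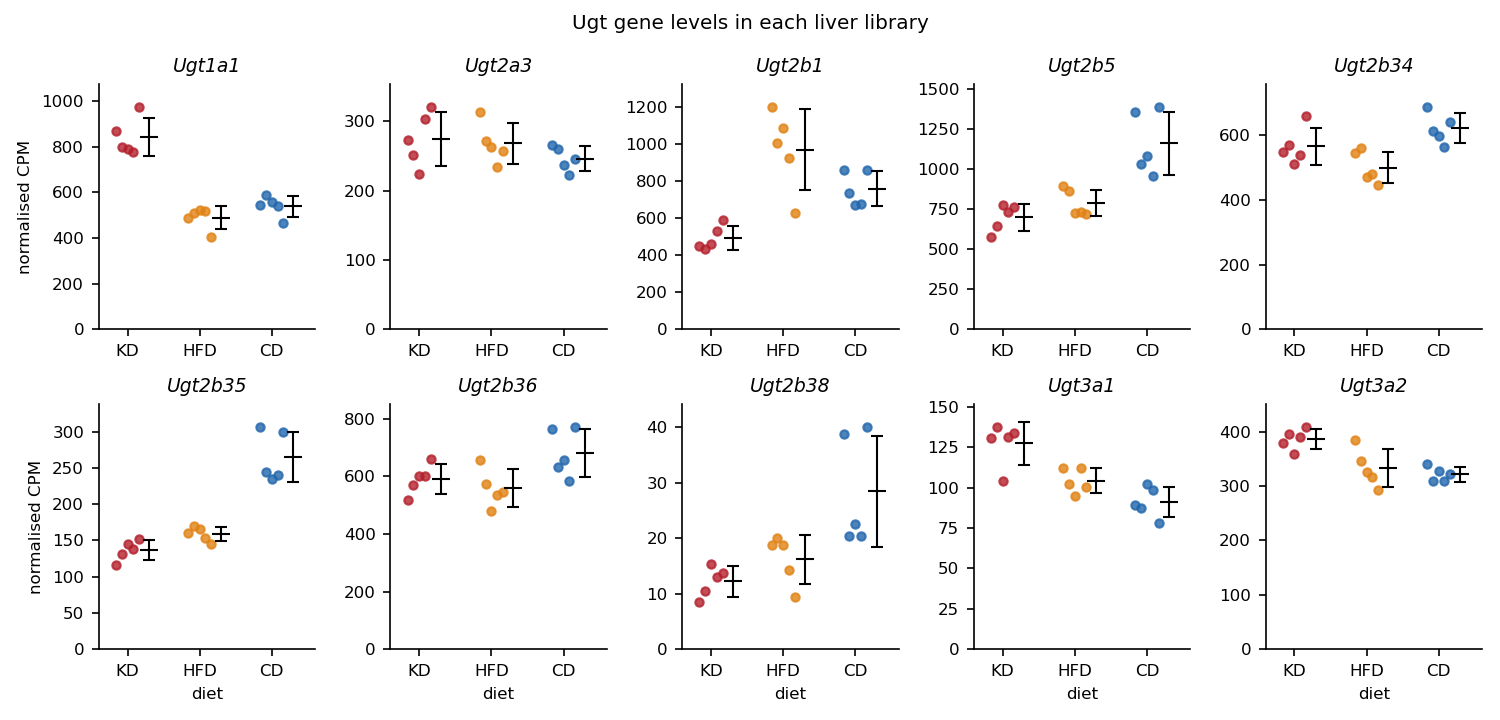
Normalised CPM (vertical axes, from 0) of the 10 Ugt genes in each of 15 liver libraries, with KD, HFD and CD from left to right; points are libraries and bars give the mean ± SD (n = 5). The 5 KD libraries lie above all CD libraries for Ugt1a1, Ugt3a1 and Ugt3a2 and below all CD libraries for Ugt2b1, Ugt2b5, Ugt2b35 and Ugt2b38.

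Between diets, levels are given as CPM normalised for library composition. Unless another test or setting is named, each adjusted p comes from edgeR's quasi-likelihood F test, for single genes corrected over 13967 genes. Subfamily sums were corrected in their own fit, in which they replaced the single Ugt genes. On the ketogenic diet Ugt1a1 and both Ugt3a genes rose relative to chow, and Ugt2b1, Ugt2b5, Ugt2b35 and Ugt2b38 fell. In all, 3 of the 10 genes rose, 4 fell and 3 did not pass. Over all genes tested, 30.8% passed in this comparison, 16.2% as higher and 14.6% as lower, against 7 of 10 here. The same 7 genes had KD and CD libraries that did not overlap, which holds for 22.3% of all genes. The median log2 fold change of the 10 genes was -0.17, beside -0.01 over all genes. Outside the 10, another 10 Ugt genes were tested, of which 0 rose, 2 fell (Ugt1a5 and Ugt1a6a) and 8 did not pass. The count of 7 of 10 therefore does not describe the whole family. Scaling by library totals alone raised the share of higher genes among all calls to 68.5%, against 52.6%. Values given on the TPM scale are from limma on log2 TPM with pseudocounts of 0.5 and 0.1, where the median of all genes lay 0.24 and 0.29 higher in KD than in CD livers. Less RNA per cell and fewer cells that make it cannot be told apart in whole liver.

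Ugt1a1, the enzyme that conjugates bilirubin, had 868, 800, 791, 777 and 975 CPM in KD livers, 486, 511, 524, 517 and 402 CPM in HFD livers, and 542, 589, 557, 538 and 464 CPM in CD livers. All 5 KD libraries stood above every other library, and HFD and CD libraries overlapped. It rose on the ketogenic diet by 0.65 ± 0.087 on the log2 scale relative to chow (SE; adjusted p = 1.85e-05), a 1.57-fold higher level. Relative to the high-fat diet the difference was 0.79 ± 0.087 (adjusted p = 4.48e-06, 5 of 5 KD libraries above all HFD libraries). The high-fat diet against chow gave -0.14 ± 0.086 and did not pass (adjusted p = 0.284).

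The sum of the Ugt1a genes, which does not depend on how reads were split among them, was higher in KD than in CD livers and lower in HFD than in CD livers. It averaged 1315 ± 114 CPM in KD livers, 883 ± 72.0 CPM in HFD livers and 1072 ± 86.9 CPM in CD livers (SD, n = 5 each). It rose by 0.29 ± 0.080 in KD livers relative to chow (adjusted p = 0.00882), without overlap, and was 0.58 ± 0.080 higher than in HFD livers (adjusted p = 4.90e-05). It fell by 0.28 ± 0.080 on the log2 scale in HFD livers relative to chow (adjusted p = 0.0237). That call was lost without HFD replicate 14 (adjusted p = 0.0593) or CD replicate 15 (0.0649). Ugt1a1 took 64.0 ± 1.07% of the Ugt1a reads in KD livers, 55.2 ± 1.46% in HFD livers and 50.2 ± 2.65% in CD livers. These shares differed between KD and CD livers and between KD and HFD livers without overlap (exact two-sided permutation test, p = 0.00794, the smallest possible with 5 against 5, and adjusted p = 0.0183 over 30 shares), and between HFD and CD livers with overlap (exact p = 0.0159, adjusted p = 0.0340). That last call was lost with shares of TPM (adjusted p = 0.0510) and without HFD replicate 10 or 11 (0.0595 each) or CD replicate 15 (0.0510). Unlike the sum, a share depends on how reads were split among the genes, and it can rise without a rise of its gene. Ugt1a9 took 10.3, 3.48 and 11.0% of the Ugt1a reads in KD, HFD and CD livers.

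Ugt1a9, whose human counterpart conjugates phenols, had 165, 140, 141, 77.2 and 156 CPM in KD livers, 27.7, 37.6, 28.4, 33.8 and 26.2 CPM in HFD livers, and 150, 107, 124, 115 and 96.6 CPM in CD livers. Every HFD library lay below every KD and CD library, while KD and CD libraries overlapped. It fell by 1.95 ± 0.19 on the log2 scale on the high-fat diet relative to chow (adjusted p = 3.54e-05), a 3.85-fold lower level, and was 2.14 ± 0.19 higher in KD than in HFD livers (adjusted p = 4.10e-06). Between KD and CD livers the difference of 0.20 ± 0.18 did not pass (adjusted p = 0.452), and without KD replicate 6 it was 0.34 and passed (adjusted p = 0.0429).

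Ugt1a5 averaged 35.8 ± 7.30 CPM in KD livers, 50.7 ± 12.7 CPM in HFD livers and 83.2 ± 30.9 CPM in CD livers. It fell by 1.22 ± 0.27 on the log2 scale in KD livers relative to chow (adjusted p = 0.00362), and the HFD difference of -0.71 did not pass (adjusted p = 0.0845). Ugt1a6a, from a gene pair known for conjugating small phenols, averaged 142 ± 14.4 CPM in KD livers, 149 ± 9.76 CPM in HFD livers and 167 ± 12.7 CPM in CD livers. Its fall of 0.23 in KD livers relative to chow passed (adjusted p = 0.0235), but not without KD replicate 2, 3 or 4 or CD replicate 15 (adjusted p between 0.0521 and 0.0730), and its sign turned on the TPM scale (0.25). Ugt1a6b, which shares most of its sequence with Ugt1a6a, averaged 153, 159 and 159 CPM in KD, HFD and CD livers and passed in no comparison. Within Ugt1a6a, transcript 201 held 19.8 ± 13.2% of the reads in KD livers, 25.1 ± 7.09% in HFD livers and 43.2 ± 6.96% in CD livers, and transcript 202 held 61.7, 59.3 and 41.6%, given without a test. Ugt1a10, at 3.33, 2.37 and 4.13 CPM in KD, HFD and CD livers, fell by 0.80 in HFD livers relative to chow (adjusted p = 0.0201), a call lost without HFD replicate 14 (0.0508) or CD replicate 16 (0.0556). Ugt1a2 and Ugt1a7c were at or below 2.86 CPM on average in each diet and did not pass, and Ugt1a8 had at most 10 reads in a library.

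**Figure D2:**
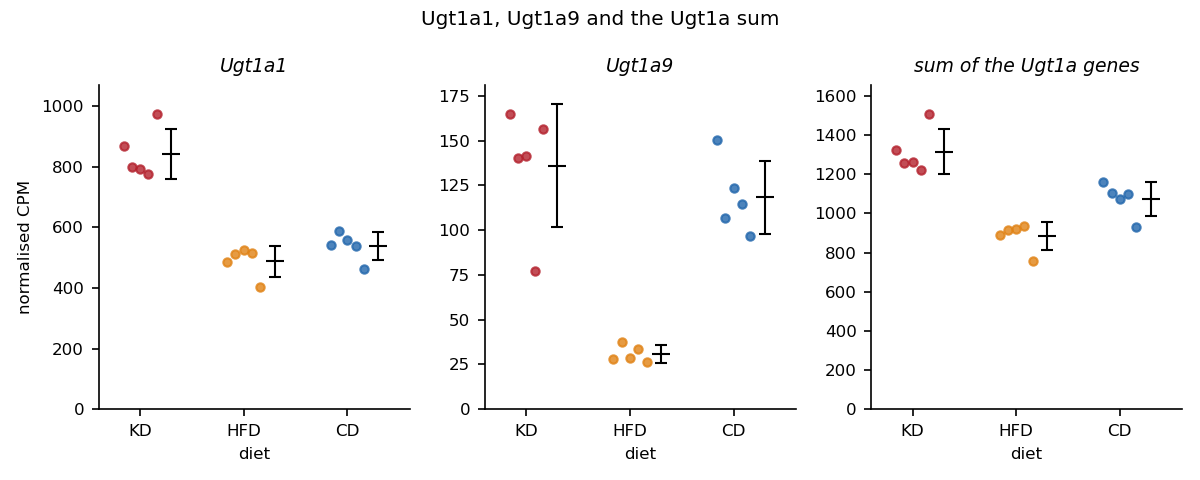
Normalised CPM (vertical axes, from 0) of Ugt1a1, Ugt1a9 and the sum of the Ugt1a genes in 15 liver libraries, with KD, HFD and CD from left to right; points are libraries and bars the mean ± SD (n = 5). Ugt1a1 stood at 777 to 975 CPM in KD livers and at 402 to 589 CPM in the others, whereas Ugt1a9 stood at 26.2 to 37.6 CPM in HFD livers and at 77.2 to 165 CPM in the others.

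Among the Ugt2b genes, which conjugate steroids, bile acids and drugs, Ugt2b35 had the smallest adjusted p of the 10 genes in KD against CD livers. It had 117, 131, 145, 138 and 152 CPM in KD livers, 160, 170, 166, 154 and 146 CPM in HFD livers, and 307, 245, 234, 241 and 299 CPM in CD livers. All KD and all HFD libraries lay below all CD libraries. It fell by 0.96 ± 0.087 on the log2 scale in KD livers (adjusted p = 2.22e-07) and by 0.74 ± 0.087 in HFD livers (adjusted p = 3.54e-05), both relative to chow. The KD and HFD comparisons share the CD libraries. KD against HFD livers gave -0.22 ± 0.087 and did not pass (adjusted p = 0.0701), but passed without KD replicate 8 (0.0464), and the sign turned on the TPM scale (0.11).

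Ugt2b5, which had the highest level of the 10 genes on chow, had 576, 643, 777, 736 and 766 CPM in KD livers, 896, 863, 729, 736 and 722 CPM in HFD livers, and 1357, 1031, 1086, 957 and 1392 CPM in CD livers. KD and HFD libraries overlapped each other and lay below all CD libraries. It fell by 0.74 ± 0.11 on the log2 scale in KD livers (adjusted p = 7.10e-05) and by 0.56 ± 0.11 in HFD livers (adjusted p = 0.00279), relative to chow, and the KD against HFD difference of -0.17 ± 0.11 did not pass (adjusted p = 0.272) and was 0.15 on the TPM scale. Its near copy Ugt2b38 had 8.41, 10.5, 15.4, 13.1 and 13.7 CPM in KD livers, 18.7, 20.03, 18.8, 14.2 and 9.32 CPM in HFD livers, and 38.7, 20.4, 22.5, 20.4 and 40.1 CPM in CD livers. CD libraries again lay above all others, with CD replicates 15 and 19 high for Ugt2b38 as for Ugt2b5 and Ugt2b35. Ugt2b38 fell by 1.22 ± 0.27 on the log2 scale in KD livers (adjusted p = 0.00368). In HFD livers its difference of -0.81 ± 0.26 did not pass (adjusted p = 0.0560, between 0.0159 and 0.133 over 19 alternatives). How far reads of Ugt2b5 enter the values of Ugt2b38 was not tested.

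Ugt2b1, which in rats conjugates bisphenol A, was the one of the 6 Ugt2b genes described here whose mean was higher on the high-fat diet than on chow. It had 449, 435, 457, 530 and 590 CPM in KD livers, 1200, 1007, 1088, 926 and 625 CPM in HFD livers, and 857, 735, 671, 674 and 858 CPM in CD livers. KD libraries lay below all others, and 4 of 5 HFD libraries above all CD libraries, with HFD replicate 14 below them. It fell by 0.63 ± 0.14 on the log2 scale in KD livers relative to chow (adjusted p = 0.00303) and was 0.98 ± 0.14 lower in KD than in HFD livers (log2 fold change -0.98, adjusted p = 1.27e-04). HFD against CD livers gave 0.35 ± 0.14 and did not pass (adjusted p = 0.103), and without HFD replicate 14 it gave 0.48 and passed (adjusted p = 0.00806). Scaled by library totals alone, Ugt2b1 also passed in that comparison (0.35, adjusted p = 0.0432). Its share of the Ugt2b reads was 19.7 ± 1.24% in KD livers, 32.1 ± 4.43% in HFD livers and 21.6 ± 0.751% in CD livers. The HFD share lay above both others without overlap (exact permutation test, p = 0.00794 and adjusted p = 0.0183 for each).

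Ugt2b34 and Ugt2b36 did not pass in KD against CD livers. Ugt2b34 averaged 566 ± 57.0 CPM in KD livers, 500 ± 49.3 CPM in HFD livers and 621 ± 46.4 CPM in CD livers. It fell by 0.31 ± 0.083 on the log2 scale in HFD livers relative to chow (adjusted p = 0.0157), without overlap, which did not pass on the TPM scale (adjusted p = 0.0550 and 0.0579). Its KD difference from chow of -0.13 did not pass (adjusted p = 0.237), and its sign turned on the TPM scale (0.21). Ugt2b36 averaged 590 ± 51.6 CPM in KD livers, 559 ± 64.9 CPM in HFD livers and 682 ± 84.1 CPM in CD livers. Its fall of 0.29 ± 0.094 in HFD livers passed narrowly (adjusted p = 0.0461), and leaving out any 1 of 7 libraries (HFD replicate 10, 11, 12 or 14, or CD replicate 15, 17 or 19) ended the call (adjusted p between 0.0603 and 0.122). It was also lost without the robust step (0.0519), with only the diets compared (0.0668) and on the TPM scale (0.173 and 0.175). In KD livers both took a larger share of the Ugt2b reads than in HFD or CD livers: Ugt2b34 took 22.7 ± 1.93% in KD, 16.8 ± 0.998% in HFD and 17.7 ± 1.16% in CD livers, and Ugt2b36 took 23.6 ± 0.404%, 18.8 ± 2.03% and 19.4 ± 0.400%. Each of these 4 differences in share was without overlap (exact permutation test, p = 0.00794, adjusted p = 0.0183). Ugt2b37 averaged 1.73, 2.50 and 2.31 CPM in KD, HFD and CD livers and passed in no comparison.

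The sum of the Ugt2b genes was 2217, 2359, 2509, 2560 and 2842 CPM in KD livers, 3479, 3198, 2954, 2846 and 2496 CPM in HFD livers, and 4016, 3278, 3270, 3041 and 4006 CPM in CD livers. KD libraries lay below all CD libraries, and HFD libraries overlapped both. The sum fell by 0.50 ± 0.10 on the log2 scale in KD livers relative to chow (adjusted p = 0.00105), a call lost on the TPM scale (0.198 and 0.201). The HFD difference of -0.23 ± 0.10 did not pass (adjusted p = 0.125), nor did KD against HFD livers (-0.26 ± 0.10, adjusted p = 0.0642, and 0.12 on the TPM scale). Without KD replicate 8 or HFD replicate 14 that last comparison passed (adjusted p = 0.0405 and 0.0260).

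**Figure D3:**
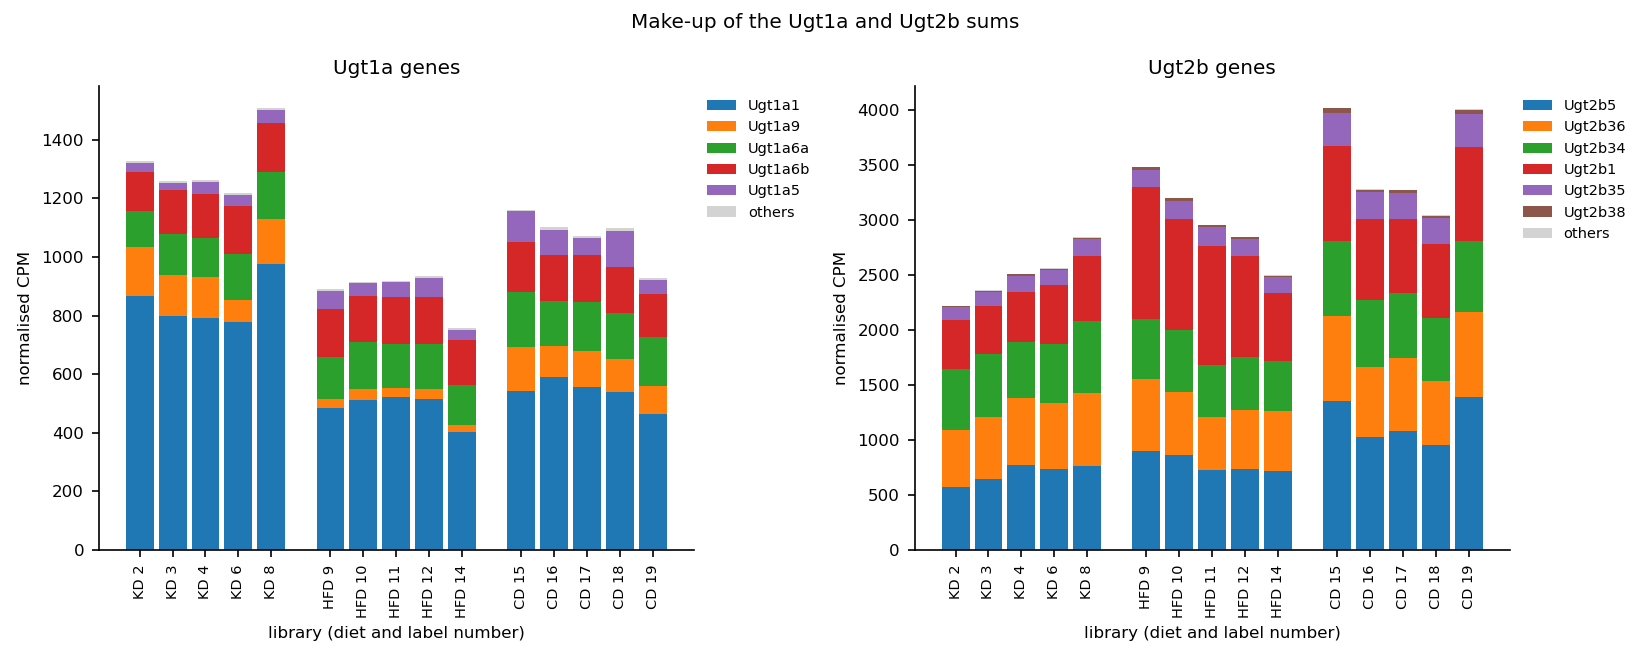
Normalised CPM (vertical axes, from 0) of the Ugt1a and Ugt2b sums in each library, stacked by gene, with KD, HFD and CD libraries from left to right. The Ugt1a1 segment is the tallest of the Ugt1a stack in every library, the Ugt1a9 segment is thin in the 5 HFD libraries, and Ugt2b1 takes 25.0 to 36.8% of the Ugt2b reads in HFD livers against 18.2 to 20.8% in KD livers and 20.5 to 22.4% in CD livers.

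Both Ugt3a genes were higher on the ketogenic diet. Ugt3a1, which in humans transfers N-acetylglucosamine, had 131, 138, 104, 131 and 134 CPM in KD livers, 112, 102, 94.7, 112 and 101 CPM in HFD livers, and 89.4, 87.5, 102, 98.7 and 78.0 CPM in CD livers. All KD libraries lay above all CD libraries, with KD replicate 4 the closest to them. It rose by 0.48 ± 0.083 relative to chow (adjusted p = 2.07e-04) and was 0.29 ± 0.083 higher than in HFD livers (adjusted p = 0.0148). Ugt3a2, which in humans transfers glucose and xylose, had 379, 396, 359, 390 and 409 CPM in KD livers, 384, 346, 326, 318 and 292 CPM in HFD livers, and 341, 309, 329, 309 and 323 CPM in CD livers. KD libraries again lay above all CD libraries and overlapped the HFD libraries. It rose by 0.26 ± 0.069 relative to chow (adjusted p = 0.00718). Its difference of 0.21 ± 0.069 from HFD livers passed (adjusted p = 0.0294), but not without KD replicate 3, 6 or 8 or HFD replicate 11, 12 or 14 (adjusted p between 0.0526 and 0.0756). Neither gene passed in HFD against CD livers (0.20, adjusted p = 0.116, and 0.05, adjusted p = 0.684). Their sum rose by 0.32 ± 0.068 in KD livers relative to chow (adjusted p = 0.00157).

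Ugt2a3, which in humans conjugates a bile acid, held at least 98.4% of the Ugt2a reads in every library. It averaged 275 ± 38.8 CPM in KD livers, 268 ± 28.9 CPM in HFD livers and 246 ± 17.5 CPM in CD livers. It passed in no comparison (0.16, adjusted p = 0.215, for KD against CD livers), although 3 of 5 KD libraries lay above all CD libraries. Scaling by library totals alone gave 0.23 for KD against CD livers and passed (adjusted p = 0.0335). Ugt2a1 and Ugt2a2, known from the nose, averaged at most 1.29 CPM in each diet, and Ugt8a, which makes myelin galactolipids, had at most 9 reads in a library.

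In HFD against CD livers 0 of the 10 genes rose, 4 fell (Ugt2b5, Ugt2b34, Ugt2b35, Ugt2b36) and 6 did not pass, where 15.6% of all genes passed, 8.30% as higher and 7.32% as lower. At an unadjusted p under 0.05 in edgeR, 2 of the 10 were higher (Ugt2b1 and Ugt3a1) and 5 lower (Ugt2b34, Ugt2b35, Ugt2b36, Ugt2b38 and Ugt2b5). The share of all genes at that threshold was not taken, so these 2 counts have nothing to be set beside. Without overlap were 4 of 10, beside 10.3% of all genes. By DESeq2 0 of the 10 rose, and Ugt2b38 passed as lower (adjusted p = 0.0159). With library totals alone Ugt2b1 passed as higher (0.35, adjusted p = 0.0432) and Ugt2b38 as lower (adjusted p = 0.035). In KD against HFD livers 3 of the 10 rose (Ugt1a1, Ugt3a1, Ugt3a2) and 1 fell (Ugt2b1), where 26.1% of all genes passed, 13.1% as higher and 13% as lower, and 2 were without overlap, beside 17% of all genes. The medians over the 10 genes were -0.21 for HFD against CD livers and 0.06 for KD against HFD livers, beside 0.01 and -0.02 over all genes. Of the 10 Ugt genes tested outside these, 2 fell in HFD against CD livers (Ugt1a9 and Ugt1a10) and 0 rose. In KD against HFD livers 1 of them rose (Ugt1a9) and 0 fell. Ugt2b35 and Ugt2b5 lay below chow on both diets, with differences between the diets that did not pass, while Ugt1a1, Ugt2b1, Ugt3a1 and Ugt3a2 passed in the direct comparison of KD with HFD livers.

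**Figure D4:**
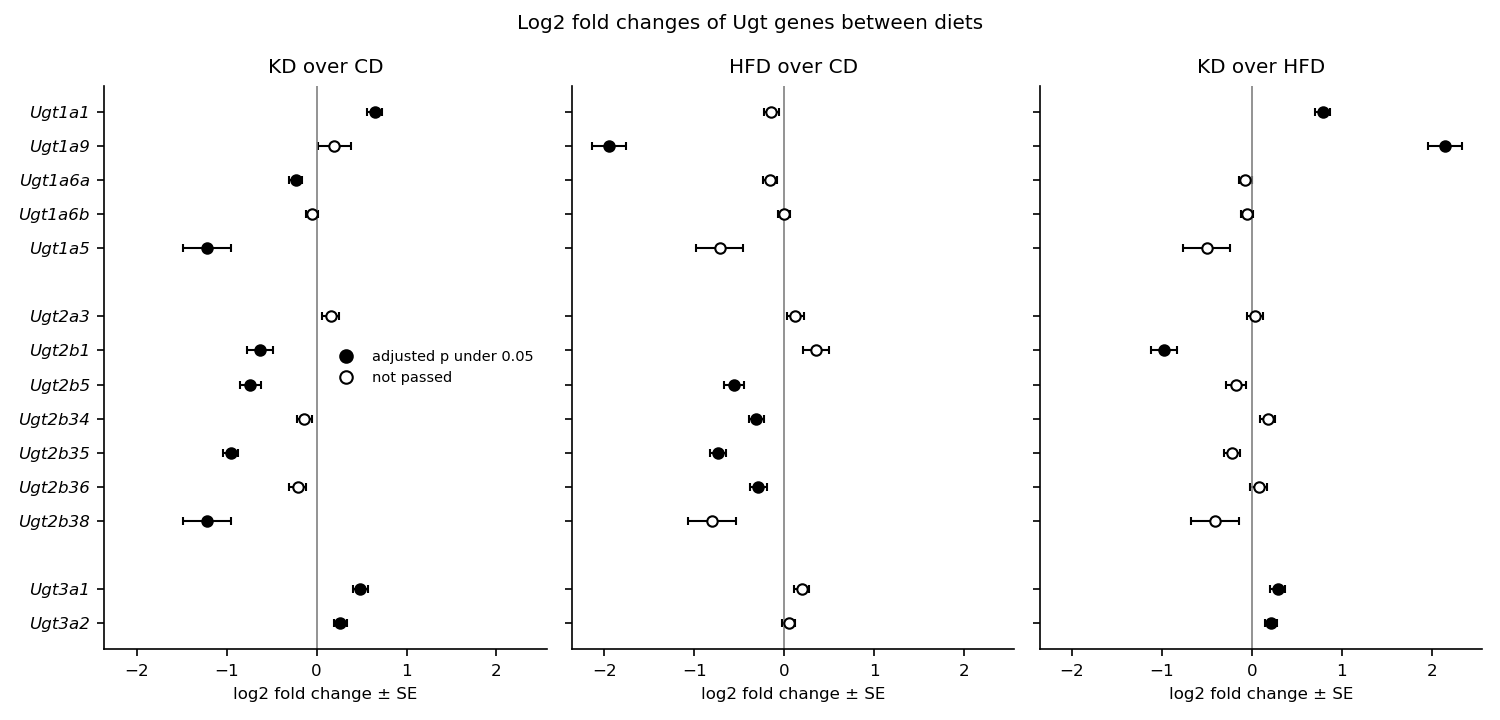
Log2 fold change ± SE (horizontal axes) of Ugt1a, Ugt2 and Ugt3a genes for KD over CD, HFD over CD and KD over HFD; filled points have an adjusted p under 0.05 and open points do not. Ugt1a1 lies at 0.65, -0.14 and 0.79 in the 3 panels, Ugt1a9 at 0.20, -1.95 and 2.14, and Ugt2b35 at -0.96, -0.74 and -0.22.

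The supply of UDP-glucuronate was examined through 7 genes. Of these 2 rose (Pgm1, Pgm2) and 4 fell (Ugp2, Ugdh, Slc35d1, Uxs1) in KD against CD livers, where 30.8% of all genes passed. In HFD against CD livers only Ugdh passed among these 7, as lower. Ugdh, which oxidises UDP-glucose to UDP-glucuronate, averaged 150 ± 18.9 CPM in KD livers, 176 ± 12.5 CPM in HFD livers and 255 ± 26.5 CPM in CD livers. It fell by 0.77 ± 0.088 on the log2 scale in KD livers (adjusted p = 3.40e-06) and by 0.53 ± 0.088 in HFD livers (adjusted p = 6.27e-04) relative to chow. Slc35d1, which carries UDP-glucuronate into the endoplasmic reticulum, fell by 0.44 ± 0.067 in KD livers relative to chow (adjusted p = 6.64e-05), but by 0.11 on the TPM scale, which did not pass (0.460 and 0.464 with pseudocounts of 0.5 and 0.1), and its HFD difference of -0.14 did not pass (adjusted p = 0.147). Ugp2, which makes UDP-glucose, fell by 0.22 ± 0.056 (adjusted p = 0.00535), and its sign turned on the TPM scale (0.053), and with library totals alone it did not pass (adjusted p = 0.0612). The Pgm1 call was lost without KD replicate 8 (adjusted p = 0.0597) or CD replicate 17 (0.0533) or 19 (0.0600), and the Uxs1 call without KD replicate 3 (0.0547), with library totals alone (0.0744) and on the TPM scale.

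Ugdh was also the gene whose profile over the 15 libraries was most like those of Ugt2b35 and Ugt2b5, among 13301 protein-coding genes outside the Ugt families. Likeness was the root mean square difference of log2 CPM, each gene centred on its own mean. That difference was 0.124 between Ugt2b35 and Ugdh, 0.155 with Ciao2b and 0.160 with Aox1, where the profile of Ugt2b35 itself had a root mean square of 0.427. For Ugt2b5, with 0.356, it was 0.106 with Ugdh, 0.132 with Bet1 and 0.145 with Atp6v1g1. For Ugt1a1, with 0.365, near genes were the peptidase gene Anpep (0.102) and the pantetheinase gene Vnn3 (0.108). These are descriptions of levels in the same libraries and carry no test.

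**Figure D5:**
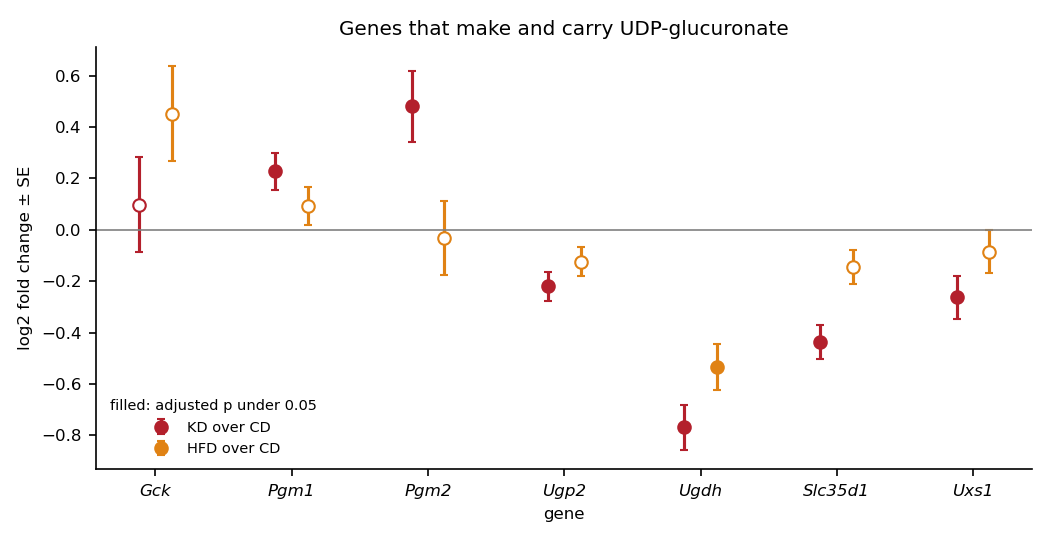
Log2 fold change ± SE (vertical axis) of 7 genes that make or carry UDP-glucuronate, for KD over CD on the left and HFD over CD on the right of each pair; filled points have an adjusted p under 0.05. Ugdh lies lowest for both diets, at -0.77 for KD and -0.53 for HFD.

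Transport and cleavage of glucuronides showed no common direction. Of 8 transporters 3 rose (Slco1a4, Slco1b2, Slco2b1) and 2 fell (Abcc4, Slco1a1) in KD against CD livers, where 30.8% of all genes passed. Slco1b2, a hepatocyte uptake carrier, averaged 1427 ± 86.4 CPM in KD livers, 1227 ± 88.3 CPM in HFD livers and 986 ± 61.7 CPM in CD livers, and rose in KD livers by 0.53 (adjusted p = 1.51e-05) and in HFD livers by 0.32 (adjusted p = 0.00567, and 0.175 and 0.168 on the TPM scale). Abcc4, an export pump of the blood side, fell by 0.74 in KD livers (adjusted p = 9.21e-04) and by 1.30 in HFD livers (adjusted p = 3.95e-05). On the TPM scale its KD differences of -0.12 and -0.20, with the same pseudocounts, did not pass (adjusted p = 0.308 and 0.391). The pumps that carry conjugated bilirubin into bile and blood did not pass in KD against CD livers: Abcc2 had a log2 fold change of 0.18 (adjusted p = 0.148) and Abcc3 of 0.11 (adjusted p = 0.604). Of 7 tested genes that cleave glucuronides or use glucuronate, only Xylb passed in KD against CD livers (0.21, adjusted p = 0.00562), and Gusb, the beta-glucuronidase, had -0.06 (adjusted p = 0.652). Among 5 genes that make heme and turn it into bilirubin, the substrate of Ugt1a1, Hmox2 rose by 0.24 (adjusted p = 0.00836) and Alas1, the first step of heme synthesis, by 1.81 ± 0.62 (adjusted p = 0.0425) in KD against CD livers. The Alas1 call was lost in each of 8 alternatives without 1 library (adjusted p between 0.0546 and 0.0876; KD replicate 2, 3, 4 or 8, or CD replicate 15, 17, 18 or 19) and with no filter on low counts (0.0625).

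Of 17 genes known to act on Ugt genes, all transcription factors except Keap1, 5 rose and 1 fell (Nr1h2) in KD against CD livers, beside 30.8% of all genes. Ppara, the fatty acid sensor, rose by 1.45 ± 0.12 (adjusted p = 1.70e-07) and averaged 142, 82.7 and 52.1 CPM in KD, HFD and CD livers. Its partner Rxra rose by 0.46 (adjusted p = 4.69e-05), and the xenobiotic sensors CAR (Nr1i3) and PXR (Nr1i2) by 0.67 (adjusted p = 9.08e-04) and 0.49 (adjusted p = 0.00108). Ahr was the remaining one. In HFD against CD livers 3 of the 17 rose and 0 fell, beside 15.6% of all genes. They were Ppara (0.67, adjusted p = 0.0015), Rxra (0.21, adjusted p = 0.0444) and Nr1h3 (0.18, adjusted p = 0.0219). The Rxra call was lost with library totals alone (adjusted p = 0.0669), among other alternatives. CAR and PXR did not pass in HFD against CD livers (0.32, adjusted p = 0.101, and 0.0039, adjusted p = 0.985). Hnf4a, which maintains hepatocyte genes, did not pass in KD against CD livers (-0.03, adjusted p = 0.877).

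Targets of these factors are given list by list. Of 10 PPARalpha targets 8 rose in KD against CD livers, and in HFD against CD livers 1 rose and 3 fell. Of all genes, 16.2% rose and 14.6% fell in KD against CD livers, and 8.30% rose and 7.32% fell in HFD against CD livers, which holds beside each list here. Cpt1a, of fatty acid oxidation, rose by 1.79 and Vnn1, a pantetheinase gene, by 1.91 in KD livers (adjusted p = 6.52e-10 and 1.36e-06). Of 8 targets of CAR and PXR, 4 rose and 1 fell in KD livers, and 1 rose and 4 fell in HFD livers, both against chow. Por, the electron donor of cytochromes P450, rose by 1.34 in KD livers (adjusted p = 8.68e-06), and Cyp2b9, Cyp2b13 and Gadd45b also rose. Cyp2b13 was near the floor, averaging 0.63, 0.012 and 0 CPM in KD, HFD and CD livers. Por was also the target that rose in HFD livers (0.46, adjusted p = 0.0488), a call lost with library totals alone (0.0887), among other alternatives. Cyp2c29 fell by 1.93 in KD livers (adjusted p = 3.41e-04). Cyp2b10 (0.28, adjusted p = 0.782) and Cyp3a11 (0.16, adjusted p = 0.864) did not pass in KD against CD livers. Of 10 NRF2 targets 6 fell in KD livers and 7 in HFD livers relative to chow, and the others did not pass. Ephx1 and Gstm1 fell by 0.98 and 1.43 in KD livers (adjusted p = 4.50e-06 and 5.30e-06) and by 1.03 and 1.27 in HFD livers (adjusted p = 2.49e-05 and 8.73e-05). Of 6 AhR targets, 2 fell on each diet, Cyp1a1 (-1.30 in KD and -1.94 in HFD livers) and Cyp1a2 (-0.65 and -0.67), each relative to chow. Cyp1a1 was near the floor, averaging 0.58, 0.37 and 1.44 CPM in KD, HFD and CD livers. Its differences from chow shrank to -0.45 in KD and -0.73 in HFD livers in the weakest alternatives.

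Markers of hepatocyte position differed from chow on both diets. Of all genes, 16.2% rose and 14.6% fell in KD against CD livers, and 8.3% rose and 7.32% fell in HFD against CD livers. Of 5 periportal markers 4 fell in KD against CD livers (Ass1, Cyp2f2, Gls2, Hal), with summed levels of 1928 to 2951 CPM in KD, 4243 to 4842 CPM in HFD and 2753 to 4069 CPM in CD livers. Of 5 pericentral markers 3 rose (Glul, Oat, Slc1a2), with 1660 to 2035 CPM in KD, 1220 to 1577 CPM in HFD and 955 to 1173 CPM in CD livers. In HFD against CD livers, 2 periportal markers (Gls2, Ass1) and 2 pericentral markers (Oat, Slc1a2) rose, and 0 fell. None of these 10 markers was at 0 in all libraries. All 3 erythroid markers fell in KD against CD livers, with summed levels of 236 to 383 CPM in KD, 293 to 782 CPM in HFD and 492 to 706 CPM in CD livers. Their part in the Ugt differences was not tested.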

How the data were processed

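Total RNA of 15 livers was sequenced, 5 libraries per diet. Per the submitters' processing notes, Trimmomatic 0.36, kallisto 0.44, edgeR 3.28 and build GRCm38.p6 were used, with no settings. The deposited tables give an estimated count and TPM per transcript, per the file headers. Estimated counts were summed per gene by GENCODE M21 (105734 of 106332 transcripts matched, and the rest held 0.184 to 0.223% of the reads and stayed out) and rounded. The authors' annotation release was not given in the sources used here. In edgeR 4.0.16, filterByExpr (minimum count 10, total 15) kept 13967 genes. TMM factors and a robust quasi-likelihood F test were fitted over all 15 libraries, with Benjamini-Hochberg adjustment over the genes tested and a threshold of 0.05. Sums were fitted in a table in which they replaced the Ugt genes. Shares within a subfamily had exact permutation tests, adjusted over 30. Deposited TPM values ranked genes within a diet. Between diets they served only in alternatives, because on that scale the median of all genes lay 0.24 higher in KD than in CD livers. The fits were tested on simulated data.

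No pair of replicates was a duplicate by a chi-square test of counts (18.5 to 113.4 per degree of freedom, 30 pairs). Variation between libraries of a diet, as a common coefficient, came to 0.1306, so the spread between libraries, more than depth, limits precision. Genes and lists were chosen with earlier results of these data known. Named were all Ugt genes with reads, up to 3 passing genes per pathway list with the smallest adjusted p in KD against CD livers, 10 preset pathway genes, and the 3 genes most like each of the 3 Ugt genes with the smallest adjusted p. Some genes that these rules named are not reported here. Other genes named in counts were chosen after their values were seen. Alternatives were 9 that kept all libraries (DESeq2 1.42.0, library totals, DESeq2 size factors, no filter, a stricter filter, no robust step, only the diets compared, and limma 3.58.1 on log2 TPM with pseudocounts of 0.5 and 0.1) and 15 that left out 1 library. Other software was R 4.3.3, Python 3.11.15, pandas 2.3.3 and matplotlib 3.10.9. Promoters came from RefSeq (GRCm38.p6).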

Additional observations from a re-analysis of the deposited data

Results flagged for a closer look

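In 3 of 54 groups of 5 libraries, 1 library stood far from the other 4 (Dixon's ratio above 0.71), where chance gives about 1 in 20. Ugt1a9 had 77.2 CPM in KD replicate 6, against 140 to 165 CPM in the other KD libraries. Ugt3a1 had 104 CPM in KD replicate 4, against 131 to 138 CPM in the other KD libraries. The Ugt1a sum was 757 CPM in HFD replicate 14, against 890 to 934 CPM in the other HFD libraries.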

How the results depend on the processing

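No paired analysis was possible because the label numbers never recur between diets. Over the alternatives, the fold changes of the 10 genes kept both their sign and their side of the threshold in 516 of 570 cases, the subfamily sums in 211 of 228 and the shares in 442 of 480. Signs turned in 11, 4 and 13 of these cases, each time for a value that passed under neither setting. On the log2 TPM scale (pseudocounts 0.5 and 0.1) the median of all genes shifted by 0.24 and 0.29 for KD over CD, and by 0.24 and 0.29 for KD over HFD. There the Ugt2b sum of KD over CD was -0.14 with both pseudocounts and lost its call (adjusted p = 0.198 and 0.201), the Ugt2a sum passed at 0.48 with both (0.00112 and 0.00111) and, for KD over HFD, at 0.36 with both (0.00894 and 0.00921). The Ugt1a sum of HFD over CD was -0.27 with both (0.257 and 0.251), and 7 members were called for KD over HFD with both, against 4. The Ugt2b sum of KD over HFD turned its sign there (0.12 with both), as did Ugt2b34 (0.21 with both) and Ugt2b36 (0.17 with both) for KD over CD, and Ugt2b5 (0.15 with both) and Ugt2b35 (0.11 with both) for KD over HFD. Among other results that passed under at least 1 setting, signs turned there for Ugt1a6a (0.25 with both for KD over CD, and 0.33 with both for KD over HFD), Ugp2 (0.053 with both), Uxs1 (0.11 and 0.12) and Slc35d1 for KD over HFD (0.020 and 0.021), and 474 and 489 genes were called for HFD over CD, against 2182. Library totals alone gave the Ugt2a sum 0.23 for KD over CD (adjusted p = 0.0331), and higher genes 70.6% of the calls for KD over HFD, against 50.1%. With 1 library left out, the Ugt1a sum of HFD over CD ranged from -0.33 to -0.23 and the Ugt2b sum of KD over HFD from -0.32 to -0.20. The cause was not tested for any of these changes. Each of the 10 genes had at least 308 reads in every library, so the spread between libraries, rather than counting error, limits their precision.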

Other observations

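Genes whose profile was most like that of Ugt1a9, chosen after its values were seen, were Hsd17b6, a steroid dehydrogenase gene, Rad51b, of DNA repair, and Serinc2, with root mean square differences of 0.473, 0.514 and 0.521 over 15 libraries, where Ugt1a9 itself had 0.997. Hsd17b6 averaged 110 CPM in KD livers, 40.4 CPM in HFD livers and 104 CPM in CD livers, with a log2 fold change of -1.36 for HFD over CD. Cyp3a11, a PXR target named after its values were seen, had 1032 to 12300 CPM in KD livers, 451 to 920 CPM in HFD livers and 2482 to 4591 CPM in CD livers. It fell by 2.45 ± 0.61 on the log2 scale in HFD against CD livers (edgeR, adjusted p = 0.0187), and its KD and CD libraries overlapped. Cyp3a11 has close copies that share reads.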
